A study of Mus musculus with 8 samples.

Results

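The genes described here are 49 components of the S phase DNA replication machinery, listed by name for their roles in replication licensing, DNA synthesis, nucleotide supply and S phase, and found in the count table through the mm9 gene annotation. All 49 were found among 37991 gene IDs, and all 49 passed the filter on low counts. Expression was measured by RNA sequencing in B-cell-biased lymphoid progenitors (BLPs), sorted from bone marrow enriched for Kit. There were 4 pools with the genotype H2afy-/- (H2afy_KO) and 4 with the genotype H2afy+/+ (H2afy_WT). The gene makes macroH2A1, a variant of histone H2A. The mice were 5 to 12 weeks old, and each pool held RNA of 5000 to 15000 cells from 2 to 3 animals, so a pool is not 1 animal and p-values measure the spread between pools. The sources used here give neither the strain, nor the deleted part of the allele, nor whether pools share animals. The comparison sets the pools labelled H2afy-/- against those labelled H2afy+/+.

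Replication starts when the origin recognition complex, CDC6 and CDT1 load the MCM helicase onto DNA in G1 phase. CDC45 and the GINS complex then turn the loaded helicase into a moving motor, and DNA polymerases, the PCNA clamp with its loader RFC, the RPA proteins and the nucleotide-making enzymes carry the fork through S phase. Cyclin E and the E2F transcription factors start the program, and many of its genes are known E2F targets. In bone marrow the expansion of lymphoid progenitors rests on such divisions.

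The promoters of these genes are shown first, because the rule that listed the genes used no sequence. RefSeq promoter windows (GRCm38.p6, 250 bases before to 50 after a start site) were held for 40 of the 49 genes, in 47 windows. An E2F octamer (TTTCCCGC, TTTGGCGC, TTTCGCGC or TTTGCCGC, either strand) was found in 16 of the 47 windows (34.0%), each of a different gene. The same octamers were found in 2.26% of all 32851 windows and in 3.89% of the 11530 windows of genes tested here. The CCAAT box of NF-Y was in 28 of the 47 windows (59.6%), against 37.4% of all windows and 37.7% of windows of tested genes. The GC box GGGCGG was in 33 of 47 (70.2%), against 35.7% of all windows and 60.5% of windows of tested genes. The motifs TTTGAA or TTCGAA, known as the cell cycle homology region of G2 and M phase genes, were in 7 of 47 (14.9%), against 19.2% and 14.1%. A match is a run of letters and not a shown binding site.

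A set of 5 promoters is printed 5′ to 3′ to show what such matches look like in genes that recur in the results. Capitals mark the E2F octamers in Mcm5, Mcm6 and Ubr7, which overlap each other in Mcm5 and at 1 place in Mcm6, and the CCAAT boxes in Mcm10 and Rrm2, in whose windows no listed octamer was found.
Mcm5 (chr8:75109259-75109558, plus strand): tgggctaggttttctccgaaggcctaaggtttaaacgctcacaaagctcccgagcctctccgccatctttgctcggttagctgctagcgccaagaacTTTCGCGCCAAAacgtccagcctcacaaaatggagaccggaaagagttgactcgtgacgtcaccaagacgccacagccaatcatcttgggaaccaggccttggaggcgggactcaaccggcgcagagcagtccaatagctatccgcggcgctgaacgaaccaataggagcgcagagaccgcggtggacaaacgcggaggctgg
Mcm6 (chr1:128359656-128359955, minus strand): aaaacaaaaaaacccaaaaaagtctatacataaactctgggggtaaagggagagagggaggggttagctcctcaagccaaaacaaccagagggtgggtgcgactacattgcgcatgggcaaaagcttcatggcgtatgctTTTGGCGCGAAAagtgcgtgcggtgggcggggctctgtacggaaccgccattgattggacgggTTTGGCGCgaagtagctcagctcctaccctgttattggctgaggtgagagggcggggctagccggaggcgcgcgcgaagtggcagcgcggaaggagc
Ubr7 (chr12:102757725-102758024, plus strand): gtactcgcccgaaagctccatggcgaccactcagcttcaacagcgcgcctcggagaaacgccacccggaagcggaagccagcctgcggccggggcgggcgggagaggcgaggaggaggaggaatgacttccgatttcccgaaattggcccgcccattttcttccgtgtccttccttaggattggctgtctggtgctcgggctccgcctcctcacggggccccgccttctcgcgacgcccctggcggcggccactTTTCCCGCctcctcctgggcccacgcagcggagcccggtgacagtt
Mcm10 (chr2:5012742-5013041, minus strand): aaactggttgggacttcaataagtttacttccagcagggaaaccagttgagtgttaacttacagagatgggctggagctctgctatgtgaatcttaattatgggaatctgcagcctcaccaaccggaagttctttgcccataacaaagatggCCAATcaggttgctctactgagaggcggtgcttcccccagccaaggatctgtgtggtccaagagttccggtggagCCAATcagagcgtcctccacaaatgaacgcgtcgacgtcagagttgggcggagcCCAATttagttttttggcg
Rrm2 (chr12:24708004-24708303, plus strand): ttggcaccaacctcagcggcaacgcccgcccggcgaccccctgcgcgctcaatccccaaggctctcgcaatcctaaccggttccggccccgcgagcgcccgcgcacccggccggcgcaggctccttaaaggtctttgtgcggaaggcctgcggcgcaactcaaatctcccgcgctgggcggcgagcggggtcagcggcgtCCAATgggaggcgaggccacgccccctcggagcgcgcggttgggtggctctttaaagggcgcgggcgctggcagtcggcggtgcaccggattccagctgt

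Whether any of the 49 genes was called different between the genotypes depended on the test and on pairing. None was in fits without the replicate number, and 3 (Rrm2, Mcm10 and Uhrf1) were lower in H2afy_KO in DESeq2 with that number as a block. In the unpaired edgeR quasi-likelihood test over 13722 genes, 0 members were lower and 0 higher at an adjusted p under 0.05, as were 0% of all genes in either direction, and members' adjusted p-values were 0.527 to 0.994. At an unadjusted p under 0.05, 2 members were lower (4.08%, Mcm10 and Rrm2) and 0 were higher, against 3.69% of all genes lower and 3.88% higher. That share is near the background. DESeq2 likewise called 0 members in either direction, against 0.525% of all genes lower and 0.335% higher, and at an unadjusted p under 0.05 had 2 members lower (4.08%) and 0 higher, against 4.26% of all genes lower and 4.73% higher. Most members had small negative log2 fold changes: 38 were negative and 11 positive, with a median of -0.14 and a range of -0.44 to 0.43, where all tested genes had a median of 0.00074 and 49.9% negative values. Every member's 95% interval lay within a log2 fold change of 1 in either direction, with outer bounds of -0.87 and 0.94. The H2afy_KO and H2afy_WT pools overlapped in each of the 49 genes, and of all genes 2.35% had every H2afy_KO pool below and 2.18% every H2afy_KO pool above all H2afy_WT pools. In bulk samples, fewer cells of a type and less RNA per cell cannot be told apart.

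**Figure D1:**
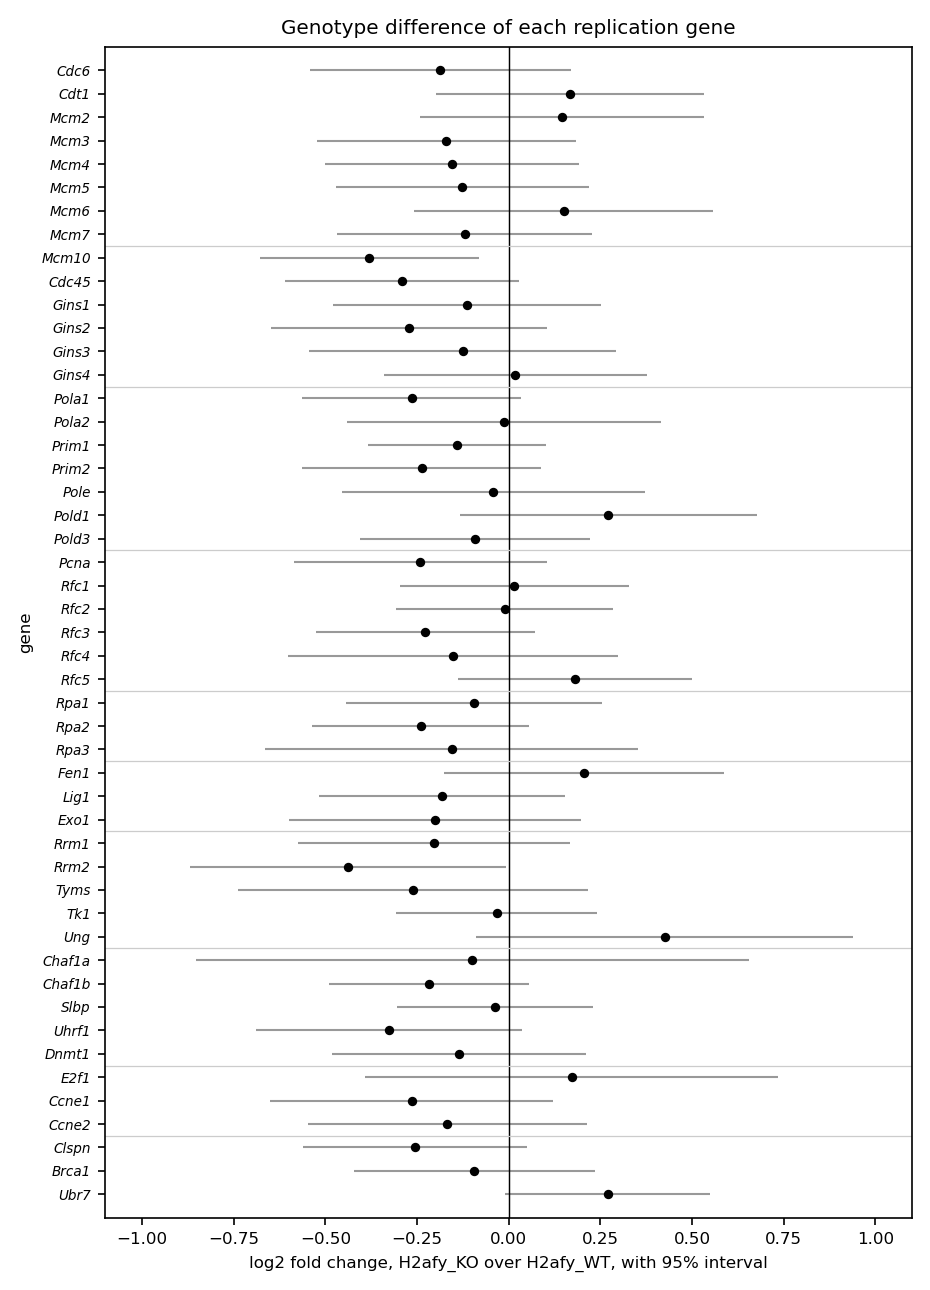
Log2 fold change of each replication gene (x axis, H2afy_KO over H2afy_WT, log2 units) with its 95% interval from the edgeR fit, genes down the y axis grouped by role. All intervals lie between -0.87 and 0.94, and those of Mcm10 and Rrm2 are the ones that leave out 0.

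The pools themselves were alike in depth but not in content. They held 21330088 to 29029765 gene counts, and members had 164 to 36144 counts in a pool. The immunoglobulin share of counts was 0.403%, 10.1%, 39.4% and 33.7% for pools H2afy_KO 1 to 4, against 3.52%, 1.01%, 19.7% and 13.01% for pools H2afy_WT 1 to 4 (95% Wilson intervals up to 0.0400 percentage points wide, which cover counting error only). Progenitor markers were present in all pools: the 11 genes of the list (Flt3, Il7r, Kit, Ly6d, Dntt, Rag1, Rag2, Ebf1, Cd79a, Igll1 and Vpreb1) summed to 6546 to 8306 CPM in H2afy_KO and 9047 to 11260.1 CPM in H2afy_WT. Every H2afy_KO pool was below every H2afy_WT pool in that sum. Dntt made up much of it and itself overlapped, at 3298 to 5067 CPM in H2afy_KO and 5010 to 6235 CPM in H2afy_WT. The other 10 genes summed to 3239 to 4112 CPM in H2afy_KO and 4037 to 5642 CPM in H2afy_WT, which overlap through H2afy_KO 4. Il7r, Rag1, Rag2, Ebf1, Igll1 and Vpreb1 each had every H2afy_KO pool below every H2afy_WT pool, as had 2.35% of all genes. Flt3, Kit, Ly6d, Dntt and Cd79a overlapped, and Flt3 and Ly6d each had their highest pool in H2afy_KO. The part of these markers in the fold changes of the replication genes was not tested. H2afy itself was at 1423 to 1953 CPM in H2afy_KO and 1981 to 2567 CPM in H2afy_WT, with a log2 fold change of -0.45 (SE 0.15) and an adjusted p of 0.504 in edgeR. This is a count over the whole gene, and since the deleted part is not given it does not check the genotype labels.

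The 8 licensing genes had fold changes of both signs. The MCM helicase is a ring of 6 different subunits. Levels are CPM, counts scaled to the size of each library. Mcm3 had 826, 651, 563 and 601 CPM in H2afy_KO 1 to 4, against 874, 749, 621 and 727 CPM in H2afy_WT 1 to 4. Mcm4 had 636, 564, 422 and 478 CPM in H2afy_KO 1 to 4, against 682, 583, 521 and 552 CPM in H2afy_WT 1 to 4. Mcm5 had 753, 644, 495 and 535 CPM in H2afy_KO 1 to 4, against 716, 714, 631 and 588 CPM in H2afy_WT 1 to 4. In these subunits H2afy_KO 1 was the highest or near the highest pool and H2afy_KO 3 the lowest, and the genotypes overlapped. Mcm7, whose exons overlap Cops6 and Ap4m1 on the opposite strand in a library that keeps no strand, had 714, 548, 459.8 and 483 CPM in H2afy_KO 1 to 4, against 640.0, 638, 554 and 564 CPM in H2afy_WT 1 to 4, again with H2afy_KO 3 lowest. The log2 fold changes were -0.17 (SE 0.16) for Mcm3, -0.15 (SE 0.16) for Mcm4, -0.13 (SE 0.16) for Mcm5 and -0.12 (SE 0.16) for Mcm7.

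Mcm2 and Mcm6 had positive fold changes instead. Mcm2 had 208, 163, 132 and 147 CPM in H2afy_KO 1 to 4, against 177, 163, 122 and 125 CPM in H2afy_WT 1 to 4. Mcm6 had 648, 437, 477 and 464 CPM in H2afy_KO 1 to 4, against 613, 417, 398 and 397 CPM in H2afy_WT 1 to 4. H2afy_KO 1 was the highest pool for both, and the genotypes overlapped. Mcm2 was at 0.15 (SE 0.18), with a 95% interval of -0.24 to 0.53, and Mcm6 at 0.15 (SE 0.19), with one of -0.26 to 0.56. These intervals cover both directions. Cdc6, the ATPase that loads the ring, had 307, 233, 196 and 196 CPM in H2afy_KO 1 to 4, against 287, 278, 259 and 237 CPM in H2afy_WT 1 to 4, a log2 fold change of -0.19 (SE 0.16). Cdt1, its partner in loading, had 21.3, 15.004, 16.1 and 19.5 CPM in H2afy_KO 1 to 4, against 17.2, 17.1, 15.2 and 14.6 CPM in H2afy_WT 1 to 4, and its fold change was 0.17 (SE 0.17). H2afy_KO 3 and 4 were the lowest of the 8 pools for Cdc6 but not for Cdt1. None of the 8 licensing genes had an unadjusted p under 0.05, and 5 of them were negative and 3 positive, with a median of -0.12.

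Helicase activation held 1 of the 2 genes with an unadjusted p under 0.05. Mcm10 (ENSMUSG00000026669, chromosome 2, 4910760 to 4933837, mm9), a scaffold that helps the loaded helicase to start, had 107, 128, 88.3 and 97.2 CPM in H2afy_KO 1 to 4, against 138, 153, 129 and 126 CPM in H2afy_WT 1 to 4. H2afy_KO 3 was the lowest pool and H2afy_WT 2 the highest, and only H2afy_KO 2 stood above the lowest H2afy_WT pool. Means were 105 ± 16.9 CPM in H2afy_KO pools, against 137 ± 11.9 CPM in H2afy_WT pools (SD, n = 4 each). This gave a log2 fold change of -0.38 (SE 0.14) with an unadjusted p of 0.0177 and an adjusted p of 0.527 from the edgeR fit. With the replicate block it was -0.39 (SE 0.10), with an adjusted p of 0.169 in edgeR and 0.0128 in DESeq2, and H2afy_KO was the lower in each of the 4 pairs of the same number. Cdc45, a subunit of the active helicase, had 92.6, 76.1, 67.4 and 87.2 CPM in H2afy_KO 1 to 4, against 113, 94.9, 80.9 and 107 CPM in H2afy_WT 1 to 4, and the log2 fold change was -0.29 (SE 0.14). Gins2, of the GINS complex (ENSMUSG00000031821, chromosome 8, 123102533 to 123113204, mm9), had 107, 81.3, 65.9 and 70.3 CPM in H2afy_KO 1 to 4, against 109.7, 111, 84.1 and 86.3 CPM in H2afy_WT 1 to 4. For Gins2 the pools H2afy_KO 3 and 4 were the lowest, and its log2 fold change was -0.27 (SE 0.17). Exons of Gins2 overlap Gse1 on the opposite strand. The other GINS genes were at -0.11 (Gins1), -0.13 (Gins3) and 0.02 (Gins4), each with a larger SE than its change.

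The polymerase genes overlapped between genotypes as well. Pola1, the catalytic subunit of the polymerase that makes primers together with primase, had 149.7, 127, 121 and 113 CPM in H2afy_KO 1 to 4, against 184, 144, 145 and 141 CPM in H2afy_WT 1 to 4. H2afy_WT 1 was the highest pool, and the log2 fold change was -0.26 (SE 0.14). Pold3, an accessory subunit of polymerase delta, had 257, 249, 182 and 188 CPM in H2afy_KO 1 to 4, against 232, 243, 223 and 235 CPM in H2afy_WT 1 to 4, with a log2 fold change of -0.09 (SE 0.14). Of the other members, Prim1, Prim2, Pole and Pola2 were at -0.24 to -0.01. Pold1, the catalytic subunit of polymerase delta, had a positive value of 0.27 (SE 0.18).

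PCNA is the ring that holds polymerases to DNA, and RFC is the complex that opens and closes it. Pcna had 274, 232, 189.5 and 182 CPM in H2afy_KO 1 to 4, against 279.6, 286, 247 and 225 CPM in H2afy_WT 1 to 4. H2afy_KO 3 and 4 were the lowest pools, and H2afy_KO 1 lay within the H2afy_WT range. Its log2 fold change was -0.24 (SE 0.16). A processed copy, Pcna-ps2, had 0.720% to 1.39% of the counts of Pcna, and reads shared between the copies were not told apart. Rfc2 had 329, 264, 264 and 286 CPM in H2afy_KO 1 to 4, against 328, 289.7, 246 and 287 CPM in H2afy_WT 1 to 4, with a log2 fold change of -0.01 (SE 0.13). Rfc3 had 106, 93.2, 81.6 and 81.3 CPM in H2afy_KO 1 to 4, against 110.4, 122, 90.6 and 100.4 CPM in H2afy_WT 1 to 4, with one of -0.23 (SE 0.14). The interval of Rfc2 was -0.31 to 0.29, and Rfc3 had its lowest pools in H2afy_KO 3 and 4. Rfc1, Rfc4 and Rfc5 were at 0.02, -0.15 and 0.18.

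The RPA proteins coat single-stranded DNA at the fork. Rpa1 had 614, 634, 462 and 464 CPM in H2afy_KO 1 to 4, against 613, 620.4, 615 and 472 CPM in H2afy_WT 1 to 4. Rpa2 had 228, 232, 197 and 208 CPM in H2afy_KO 1 to 4, against 272, 297, 216 and 237 CPM in H2afy_WT 1 to 4. H2afy_KO 3 and 4 were the lowest pools for both genes. For Rpa1 H2afy_WT 4 stood below the other H2afy_WT pools and H2afy_KO 2 was the highest of all, and for Rpa2 the highest pools were H2afy_WT 1 and 2. Log2 fold changes were -0.09 (SE 0.16) for Rpa1, -0.24 (SE 0.13) for Rpa2 and -0.16 (SE 0.23) for Rpa3. Lig1, the ligase that joins Okazaki fragments, had 258, 219.6, 177 and 203 CPM in H2afy_KO 1 to 4, against 281, 262, 218 and 212 CPM in H2afy_WT 1 to 4, a log2 fold change of -0.18 (SE 0.15). Exo1, a nuclease of end processing and mismatch repair, had 100.3, 80.8, 54.7 and 59.6 CPM in H2afy_KO 1 to 4, against 90.4, 88.2, 79.4 and 81.9 CPM in H2afy_WT 1 to 4, one of -0.20 (SE 0.18). H2afy_KO 3 was the lowest pool for both genes. Fen1, the flap nuclease, was at 0.21 (SE 0.17).

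Nucleotide supply held the member with the most negative fold change. Ribonucleotide reductase makes deoxyribonucleotides from a large subunit, encoded by Rrm1, and a small one that peaks in S phase, encoded by Rrm2. Rrm2 (ENSMUSG00000020649, chromosome 12, 25393106 to 25399011, mm9) had 906, 1093, 668 and 685 CPM in H2afy_KO 1 to 4, against 1199.7, 1364, 1111 and 869 CPM in H2afy_WT 1 to 4. H2afy_KO 3 and 4 were the lowest pools, and H2afy_WT 4 lay below H2afy_KO 1 and 2. Means were 838 ± 201 CPM in H2afy_KO pools, against 1136 ± 207 CPM in H2afy_WT pools (SD, n = 4 each). This gave a log2 fold change of -0.44 (SE 0.20) with an unadjusted p of 0.0465 and an adjusted p of 0.639 from the edgeR fit. With the replicate block it was -0.45 (SE 0.10), with an adjusted p of 0.131 in edgeR and 0.00400 in DESeq2, and H2afy_KO was the lower in each of the 4 pairs of the same number. Rrm1 had 868, 653, 571 and 591 CPM in H2afy_KO 1 to 4, against 943, 724, 707 and 714 CPM in H2afy_WT 1 to 4, with a log2 fold change of -0.20 (SE 0.17). Tyms, which makes thymidylate, was at -0.26 (SE 0.22), and Tk1, the thymidine salvage kinase, at -0.03 (SE 0.12). Ung, which removes uracil from DNA, had the most positive value of all members at 0.43 (SE 0.23), with an unadjusted p of 0.0953. Ung averaged 21.3 ± 2.97 CPM in H2afy_KO pools, against 15.9 ± 5.00 CPM in H2afy_WT pools (SD, n = 4 each), and the groups overlapped.

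Of the genes for chromatin and histone supply at the fork, 5 of 5 had negative fold changes, none with an unadjusted p under 0.05. Uhrf1, which guides the maintenance methyltransferase to new DNA (ENSMUSG00000001228, chromosome 17, 56442744 to 56462909, mm9), had 394, 309, 268 and 325 CPM in H2afy_KO 1 to 4, against 488, 419.6, 323 and 397 CPM in H2afy_WT 1 to 4. H2afy_KO 3 was lowest and H2afy_WT 1 highest, and the log2 fold change was -0.33 (SE 0.16). With the replicate block it was -0.33 (SE 0.09), with an adjusted p of 0.217 in edgeR and 0.0154 in DESeq2, and H2afy_KO was the lower in each of the 4 pairs of the same number. Dnmt1, that methyltransferase, had 486, 409, 342 and 359 CPM in H2afy_KO 1 to 4, against 536, 424, 393 and 401 CPM in H2afy_WT 1 to 4, a log2 fold change of -0.14 (SE 0.16). Chaf1a and Chaf1b, subunits of a chromatin assembly factor, were at -0.10 (SE 0.34) and -0.22 (SE 0.12), and Slbp, which binds histone mRNA, at -0.04 (SE 0.12).

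The 3 genes of S phase entry had 2 negative and 1 positive fold change. E2f1, a transcription factor of the program, had 19.4, 27.9, 25.9 and 23.1 CPM in H2afy_KO 1 to 4, against 16.4, 34.95, 17.7 and 16.3 CPM in H2afy_WT 1 to 4. H2afy_WT 2 stood above every other pool, and the log2 fold change was 0.17 (SE 0.26). Ccne1, of the cyclin E pair, had 9.37, 12.3, 9.95 and 10.1 CPM in H2afy_KO 1 to 4, against 11.4, 14.3, 12.8 and 11.6 CPM in H2afy_WT 1 to 4, and Ccne2 had 129, 178, 106 and 101 CPM in H2afy_KO 1 to 4, against 141, 149, 152 and 135 CPM in H2afy_WT 1 to 4. Ccne1 was at -0.26 (SE 0.18) and Ccne2 at -0.17 (SE 0.17). H2afy_KO 2 was the highest of all pools for Ccne2.

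The remaining members protect forks or are less well placed in the pathway. Clspn, an adaptor of the replication checkpoint, had 70.5, 50.8, 59.2 and 56.9 CPM in H2afy_KO 1 to 4, against 74.8, 78.8, 59.8 and 70.002 CPM in H2afy_WT 1 to 4, a log2 fold change of -0.26 (SE 0.14). Brca1 was at -0.09 (SE 0.15). Ubr7, whose gene family encodes ubiquitin ligases (ENSMUSG00000041712, chromosome 12, 103996177 to 104015911, mm9), had 70.6, 66.1, 60.8 and 51.97 CPM in H2afy_KO 1 to 4, against 53.99, 51.5, 49.2 and 52.3 CPM in H2afy_WT 1 to 4. H2afy_KO 1 to 3 stood above all H2afy_WT pools and H2afy_KO 4 within them. This gave a log2 fold change of 0.27 (SE 0.13) with an unadjusted p of 0.0564, and Moap1 overlaps it on the opposite strand.

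**Figure D2:**
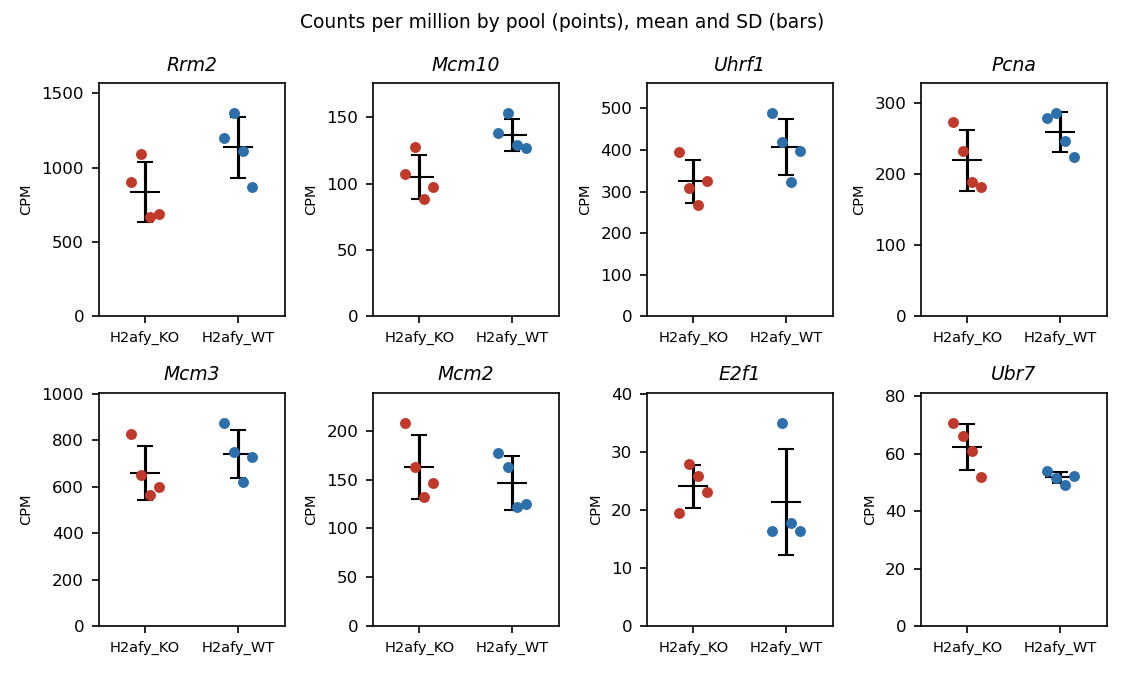
CPM (y axis, from 0) of 8 replication genes in each pool, H2afy_KO in red and H2afy_WT in blue. Points are pools, bars the mean and SD of 4 pools. The points of the genotypes overlap in every gene, with Rrm2 at 668 to 1093 CPM in H2afy_KO and 869 to 1364 CPM in H2afy_WT.

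Per kilobase of exon, the members spanned a wide range of levels. Rrm2 was the highest, with 303 ± 72.7 CPM per kb in H2afy_KO and 410.0 ± 74.5 CPM per kb in H2afy_WT (SD, n = 4 each). Mcm3 followed with 221 ± 38.9 CPM per kb in H2afy_KO and 248 ± 34.8 CPM per kb in H2afy_WT. At the low end Ccne1 had 3.92 ± 0.476 CPM per kb in H2afy_KO and 4.71 ± 0.504 CPM per kb in H2afy_WT. Between these, Cdt1 (8.22 ± 1.34 CPM per kb in H2afy_KO and 7.32 ± 0.605 CPM per kb in H2afy_WT) and E2f1 (7.63 ± 1.17 CPM per kb in H2afy_KO and 6.77 ± 2.88 CPM per kb in H2afy_WT) were also low. Levels of different genes are compared here per kilobase only. The members lie on 15 chromosomes, with 9 on chromosome 5 and 5 each on chromosomes 7 and 8. On chromosome 13, where H2afy lies, there were 0.

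The replicate number changed how the fold changes were read. Pools of the same number deviated together (correlations 0.19 to 0.41), but the labels do not say what the number marks. Some pools of different numbers correlated more, such as H2afy_KO 1 with H2afy_WT 2 at 0.52 and H2afy_KO 3 with H2afy_WT 4 at 0.45. The pairing was read from these same data. Once the replicate number entered the edgeR fit as a block, there were 10 members lower (20.4%) and 2 higher (4.08%) at an unadjusted p under 0.05, against 5.74% and 6.23% of all genes, and 0 at an adjusted p under 0.05, against 0.0802% of all genes lower and 0.0292% higher. DESeq2 with the block called 3 members lower (6.12%) and 0 higher at an adjusted p under 0.05, against 1.82% of all genes lower and 1.92% higher. At an unadjusted p under 0.05 that fit had 11 members lower (22.4%) and 2 higher (4.08%), against 6.58% of all genes lower and 7.40% higher. The 3 were Rrm2 (DESeq2 adjusted p = 0.00400), Mcm10 (DESeq2 adjusted p = 0.0128) and Uhrf1 (DESeq2 adjusted p = 0.0154). Over all alternatives the adjusted p ranged from 0.00400 to 0.9999 for Rrm2, from 0.0128 to 0.975 for Mcm10 and from 0.0154 to 0.9999 for Uhrf1 (edgeR, DESeq2 and limma fits). The median over members was -0.14 with the block. In the 4 pairs of the same number, H2afy_KO was below H2afy_WT in all 4 for 21 members (42.9%), among them Rrm2, Mcm10, Uhrf1, Cdc45, Pola1 and Rpa2, against 10.9% of all genes. It was above in all 4 for 3 members (6.12%), Mcm2, Mcm6 and Ung, against 10.1% of all genes. The members share the same 8 pools, so these counts are not independent between genes, and they were added after the values were seen. The pools of a pair also differed in immunoglobulin share, which the block does not take out. H2afy_KO had more in numbers 2 (10.1% against 1.01%), 3 (39.4% against 19.7%) and 4 (33.7% against 13.01%). It had less in number 1 (0.403% against 3.52%). The part of that share in the paired results was not tested.

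Beside genotype, the members varied with the pool. The plot of deviations by pool shows most of the rows moving together. H2afy_KO 3 was the lowest of the 8 pools for 19 members, H2afy_KO 4 for 13 and H2afy_WT 4 for 8. H2afy_KO 1 was the highest for 13, and H2afy_WT 1 and 2 for 15 each. In H2afy_KO 1 the median member stood 0.18 above its own mean on the log2 scale, and in H2afy_KO 2, 3 and 4 it stood at -0.01, -0.25 and -0.21. In H2afy_WT 1 to 4 the medians were 0.21, 0.16, -0.06 and -0.07. Together the members took 1.42%, 1.29%, 1.03% and 1.11% of non-immunoglobulin counts in H2afy_KO 1 to 4, against 1.46%, 1.42%, 1.26% and 1.22% in H2afy_WT 1 to 4 (95% Wilson intervals up to 0.0106 percentage points wide). Both genotypes had their lower shares in pools 3 and 4.

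**Figure D3:**
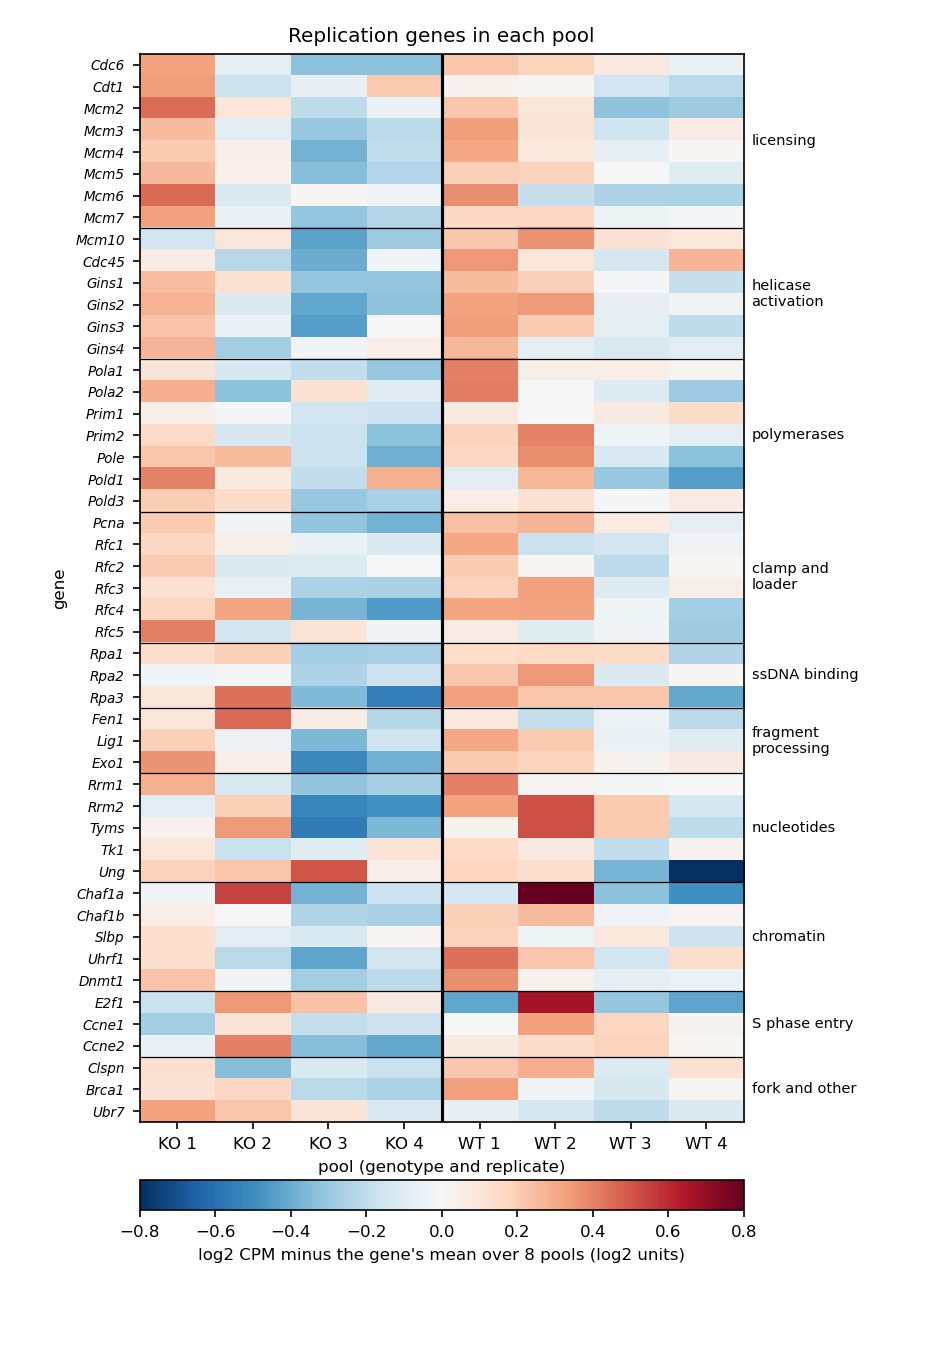
Deviation of each replication gene (rows, grouped by role) in each pool (columns, H2afy_KO left of H2afy_WT) from its own mean over the 8 pools, in log2 CPM; red is above and blue below. Columns KO 3 and KO 4 are mostly blue (42 and 40 of 49 genes below their mean), and WT 1 is mostly red (45 of 49 above).

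Levels of the members were set against the immunoglobulin share of the pools. A slope of log2 level on the log2 immunoglobulin percent was fitted to every gene with genotype as a term, after immunoglobulin genes had been left out, so that the loss of room to those counts does not enter. Of the 49 members 48 had a negative slope, Ccne1 being the exception at 0.0029, where 50.4% of all 13576 tested genes were negative. The median slope was -0.062 per doubling of the share, against -0.00078 over all genes, which over the 6.61 doublings from the lowest to the highest pool comes to -0.41 on the log2 scale. At an unadjusted p under 0.05 the edgeR test gave 19 members with a negative slope (38.8%) and 0 with a positive one, against 4.77% of all genes negative and 9.50% positive. At an adjusted p under 0.05, 0 members fell and 0 rose, against 0.0368% of all genes falling and 2.07% rising.

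The smallest unadjusted p-values of the slope were those of Gins2, Mcm2 and Exo1. Gins2 had a slope of -0.098 (SE 0.023), with an adjusted p of 0.0529. Mcm2 had one of -0.094 (SE 0.025), with an adjusted p of 0.0985, and Exo1 one of -0.096 (SE 0.028), with an adjusted p of 0.123 (edgeR). Of the 8 licensing genes 6 had a negative slope at an unadjusted p under 0.05 (edgeR), against 4.77% of all genes. Among the 6 were Cdc6 at -0.081 (SE 0.024) and Mcm7 at -0.078 (SE 0.024). Pcna was at -0.077 (SE 0.024), Rrm1 at -0.071 (SE 0.029) and Rrm2 at -0.071 (SE 0.038). The 3 genes of S phase entry were the flattest by median, at -0.027, with Ccne2 at -0.027 (SE 0.038) and E2f1 at -0.037 (SE 0.059). The 16 genes with an E2F octamer in the window had a median slope of -0.066, and the 24 with a window but no octamer one of -0.044. Their median log2 fold changes between genotypes were -0.13 and -0.12. Differences between these sets of genes were not tested.

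DESeq2 called 3 members falling with the share at an adjusted p under 0.05, against 0.435% of all genes. They were Gins2 (DESeq2 adjusted p = 0.00900), Mcm2 (DESeq2 adjusted p = 0.0355) and Mcm7 (DESeq2 adjusted p = 0.0402). Over the alternatives the adjusted p of the slope ranged from 0.00900 to 0.965 for Gins2, from 0.0355 to 0.991 for Mcm2 and from 0.0402 to 0.970 for Mcm7. With the replicate number as a block, 0 members had a negative slope at an unadjusted p under 0.05 (edgeR), against 1.72% of all genes, and the median slope was -0.017. In both genotypes pools 3 and 4 had more immunoglobulin than pools 1 and 2, so replicate number and immunoglobulin share overlap in what they describe.

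**Figure D4:**
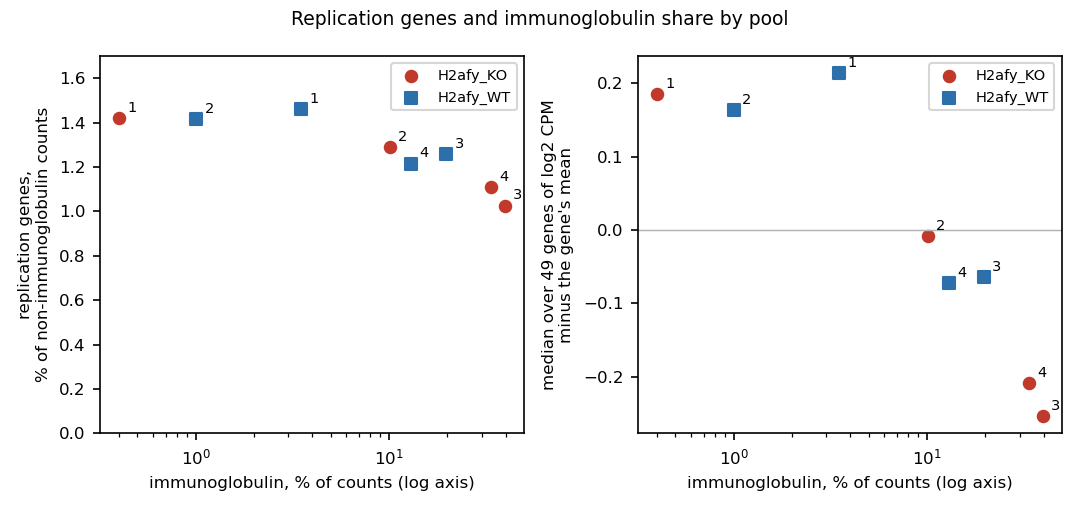
Share of non-immunoglobulin counts taken by the 49 replication genes (left, percent, from 0) and the median deviation of the 49 genes from their means (right, log2 units) against the immunoglobulin percent of each pool (x axes, log scale). Circles are H2afy_KO and squares H2afy_WT, numbered by replicate. The share is highest in the 3 pools with the least immunoglobulin, at 1.42% to 1.46%, and lowest in H2afy_KO 3 at 1.03%.

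**Figure D5:**
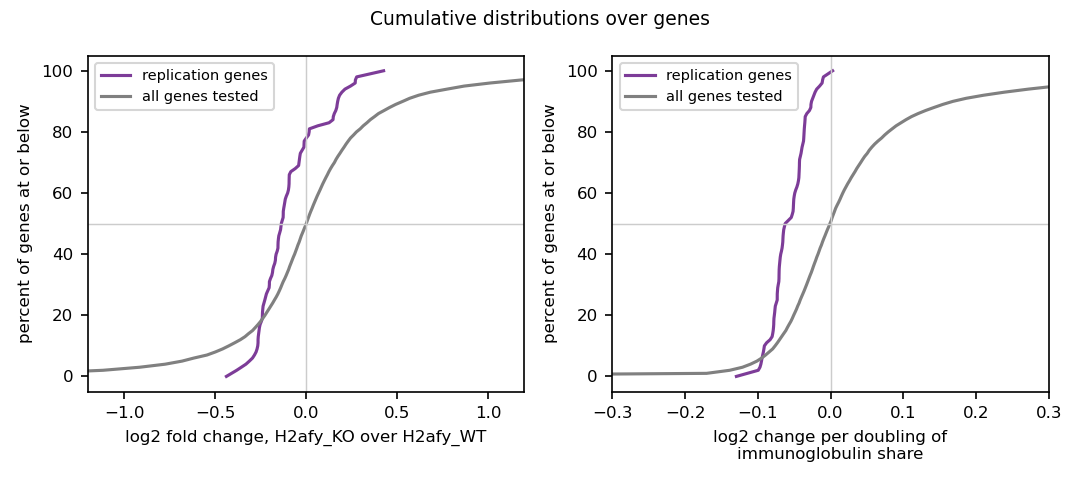
Percent of genes (y axes) at or below a given genotype log2 fold change (left, H2afy_KO over H2afy_WT) or slope per doubling of the immunoglobulin share (right), for the 49 replication genes and for all genes tested. The 25th and 75th percentiles of the members are -0.23 and -0.01 on the left, and -0.073 and -0.039 on the right.

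Markers of antibody-secreting cells moved with the same share. As such cells secrete immunoglobulin, these markers and the share are not independent measures. All 7 plasma cell genes of the list (Sdc1, Prdm1, Xbp1, Irf4, Mzb1, Tnfrsf17 and Igj) had positive slopes. Of the 7, 4 passed an adjusted p of 0.05 in edgeR, against 2.07% of all genes rising. The summed level of the 7 was 176 to 20630.0 CPM in H2afy_KO and 594 to 9136 CPM in H2afy_WT, and none was at 0 in every pool. Igj had 18967 of the 20630.0 CPM in H2afy_KO 3, but 32.4 of the 176 CPM in H2afy_KO 1. The 8 mature B cell genes summed to 1088 to 7781 CPM in H2afy_KO and 1278 to 3568 CPM in H2afy_WT. Of these sums Cd74 alone had 697 to 7342 CPM in H2afy_KO and 801 to 3126 CPM in H2afy_WT. The 3 that passed, all rising, were Ms4a1, Cd83 and Cd74, against 2.07% of all genes rising. Cd22, Fcer2a, Cr2 and H2-Aa rose without passing (edgeR slope adjusted p 0.698 to 0.873), and Cd37 had a negative slope. Granulocyte and monocyte genes summed to 847 to 2821 CPM in H2afy_KO and 1184 to 6770.3 CPM in H2afy_WT, and erythroid genes to 8.95 to 89.1 CPM in H2afy_KO and 26.0 to 279.7 CPM in H2afy_WT. All 8 tested granulocyte and monocyte genes had positive slopes (median 0.26, 4 at an unadjusted p under 0.05), as had all 7 tested erythroid genes (median 0.55, 3 at an unadjusted p under 0.05), and 0 of either list passed an adjusted p of 0.05. Plasmacytoid dendritic cell genes summed to 1044 to 1455 CPM in H2afy_KO and 821 to 1169 CPM in H2afy_WT, and T cell genes to 37.3 to 64.4 CPM in H2afy_KO and 38.3 to 57.6 CPM in H2afy_WT. Of the 6 T cell genes tested 2 passed for the slope, Cd8a and Cd4, both rising, against 2.07% of all genes rising. Cd3g, Zap70 and Bcl11b rose without passing, and Lat had a negative slope. Cd3e, at 0 to 0.377 CPM, was not tested. Of the 11 progenitor genes, 8 had negative and 3 positive slopes, with a median of -0.037. In edgeR 0 of them passed an adjusted p of 0.05, against 0.0368% of all genes falling and 2.07% rising. Flt3, Il7r and Kit had slopes of -0.029, -0.00053 and 0.0061. The part of any of these cells in the levels of the replication genes was not tested.

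The median genotype difference of the members moved by over 1.5 times with H2afy_KO 1, 3 or 4 or H2afy_WT 1 left out. Without H2afy_KO 3 and 4 together, 17 members were negative and 32 positive, and the median turned to 0.04. Without H2afy_KO 3 alone the median was -0.05 and without H2afy_KO 4 alone -0.07, each with 0 members lower at an unadjusted p under 0.05 (edgeR), against 2.73% and 3.34% of all genes. Without H2afy_WT 1 the median was -0.09. Without H2afy_KO 1 it was -0.23, with 12 members lower at an unadjusted p under 0.05, against 4.45% of all genes. With the immunoglobulin share as a covariate the median was -0.08, with 33 members negative. Rrm2 (-0.18), Mcm10 (-0.21) and Uhrf1 (-0.20) kept a negative value without H2afy_KO 3 and 4 together, and Ubr7 (0.41) and Mcm2 (0.35) a positive one.

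Of 42 further replication genes, 42 were tested and 0 passed an adjusted p of 0.05 (edgeR). They had 31 negative and 11 positive log2 fold changes, with a median of -0.08, and 1 was lower and 1 higher at an unadjusted p under 0.05, where all genes had 3.69% lower and 3.88% higher. These were Asf1b, a histone chaperone, which had 201, 269, 142 and 165 CPM in H2afy_KO 1 to 4, against 317, 326, 259 and 239 CPM in H2afy_WT 1 to 4 with a log2 fold change of -0.56 (SE 0.20), and Pole4, a small subunit of polymerase epsilon, which had 35.4, 29.9, 34.3 and 34.6 CPM in H2afy_KO 1 to 4, against 30.2, 24.8, 25.9 and 24.1 CPM in H2afy_WT 1 to 4 with one of 0.35 (SE 0.14). In Asf1b H2afy_KO 2 stood above the lowest H2afy_WT pools, and in Pole4 H2afy_KO 2 stood below the highest H2afy_WT pool. For the slope on the immunoglobulin share 38 of the 42 were negative, with a median of -0.048.

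Upstream of the members, the 11 genes of G1 cyclins, their kinases and activating factors had a median of 0.07, with 0 called and 1, E2f2, lower at an unadjusted p under 0.05, against 3.69% of all genes. E2f2 was at -0.50 (SE 0.22), and Ccnd3, the cyclin D of lymphoid expansion, at -0.71 (SE 0.32). Inhibitors of cyclin-dependent kinases, pocket proteins and repressor E2F genes had a median of -0.06 over 13 tested of 15, with 0 called and 1, Cdkn2c, higher at an unadjusted p under 0.05, against 3.88% of all genes. Cdkn2c, which encodes an inhibitor of the cyclin D kinases, had 10.2, 8.52, 19.2 and 12.5 CPM in H2afy_KO 1 to 4, against 9.05, 8.12, 8.08 and 8.30 CPM in H2afy_WT 1 to 4, a log2 fold change of 0.59 (SE 0.25). H2afy_KO 3 was its highest pool. E2f8 was at -0.30 (SE 0.15). The 30 genes of G2 and M phase had 29 negative values and a median of -0.28, with 0 called and 7 lower at an unadjusted p under 0.05, against 3.69% of all genes. Gtse1 was at -0.59 (SE 0.16) and Cdk1, the mitotic kinase, at -0.42 (SE 0.15). The median of that list was more negative than that of the replication genes (-0.14), and the difference was not tested. Its median slope on the immunoglobulin share was -0.054, and that of the replication genes was -0.062.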

How the data were processed

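RNA from 8 pools of sorted B-cell-biased lymphoid progenitors was made into cDNA with a SMARTer ultra-low-input kit, which keeps no strand, and sequenced as single reads of 50 bases, per the labels' protocols. Reads were aligned with HISAT2 2.0.6 to mm9, per the submitters' processing notes. None of the sources used here names the counter or the annotation it used. Raw counts were deposited by the authors per gene as whole numbers, not normalized, with 21330088 to 29029765 in each pool. Gene IDs were named with GENCODE M1, which matched 37205 of 37991. In it 13 members have exons that overlap another gene on the opposite strand. They are Mcm7, Cdc45, Gins2, Pole, Rfc4, Rfc5, Fen1, Lig1, Tyms, Tk1, Chaf1a, Ccne2 and Ubr7. How reads in such overlaps were counted is not given.

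Counts were filtered with filterByExpr (minimum 10), scaled by TMM and tested with the quasi-likelihood test of edgeR 4.0.16 (R 4.3.3), with Benjamini-Hochberg adjustment over all genes tested and a threshold of 0.05. SEs are the fold change over the root of the test statistic. CPM values use TMM-scaled library sizes. The slope fit left out 488 immunoglobulin genes. DESeq2 1.42.0, limma 3.58.1 and further settings were alternatives, and the scripts were tested on simulated data.

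The members and lists were chosen with earlier results of these data known. Values in every pool are given for the 2 genes in each role with the smallest p and the highest mean. They are also given for members past an unadjusted p of 0.05, and for fixed core genes. Gins2, Mcm2 and Exo1 were further picked by the smallest p of the slope on the immunoglobulin share. Pools with the same replicate number in the labels deviated together (correlations 0.19, 0.19, 0.36 and 0.41 for numbers 1 to 4), so the number was read as a pairing. Higher correlations were met across numbers, 0.52 between H2afy_KO 1 and H2afy_WT 2 and 0.45 between H2afy_KO 3 and H2afy_WT 4.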

Additional observations from a re-analysis of the deposited data

Results flagged for a closer look

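Of 98 sets of 4 pools, one for each gene and genotype, 7 had a pool far from the other 3, all in H2afy_WT. A gap of this kind is met by chance in about 1 in 20 sets. H2afy_WT 1 stood high for Mcm6 (613.1 CPM), Gins4 (30.46 CPM), Pola1 (184.0 CPM) and Rrm1 (942.7 CPM). H2afy_WT 2 stood high for Chaf1a (38.27 CPM) and E2f1 (34.95 CPM), and H2afy_WT 4 stood low for Rpa1 (471.6 CPM).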

How the results depend on the processing

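Shares of all genes tested stand in brackets, lower before higher, or falling alone for the slope. Without a replicate block, no member passed an adjusted p under 0.05 between genotypes under any alternative tried. With the replicate block 10 members were lower and 2 higher at an unadjusted p under 0.05 in edgeR (5.74% and 6.23%), and 11 and 2 in DESeq2 (6.58% and 7.40%), which put 3 lower at an adjusted p under 0.05 (1.82%). The same DESeq2 fit called 1 gene of the further replication list and 4 of the G2 and M phase list. At an unadjusted p, 1 member was higher with the filter of 5 CPM in 4 samples (4.14% of all genes higher), with limma-voom (5.41%) and with immunoglobulin genes left out (4.38%), and 2 were with the immunoglobulin share as a covariate (4.87%). Without H2afy_KO replicates 3 and 4, 0 were lower and 1 higher (3.67% and 1.94%). Leaving out each pool in turn gave 0 to 12 members lower (2.73% to 4.45%) and 0 to 3 higher (2.42% to 5.51%). For the slope at an adjusted p, 3 members fell in DESeq2 (0.435%), 1 on the percent scale (0.177%), and 0 to 1 when each pool was left out (0% to 0.142%). At an unadjusted p, 0 had a negative slope with the replicate block (1.72%) and 10 to 25 when each pool was left out (2.67% to 6.38%). The cause of these shifts was not tested. Named genes' fold changes took the other sign in 16 of 522 alternative values, and 18 of 29 genes never did. These turns were not spread evenly over the alternatives. Without H2afy_KO 3 and 4 together, Cdc6, Mcm3, Mcm4, Mcm5, Mcm7, Pold3, Rpa1, Exo1, Dnmt1, Ccne2 and Rfc2 all turned positive. No called value changed sign. Members had at least 164 counts in each pool.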

Other observations

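Ratios between subunits of the MCM ring, chosen after their values were seen, did not overlap between the genotypes in some pairs. The ratio of Mcm2 to Mcm3 counts was 0.251, 0.251, 0.235 and 0.244 in H2afy_KO 1 to 4, against 0.203, 0.218, 0.196 and 0.172 in H2afy_WT 1 to 4. The mean log2 ratio was higher in H2afy_KO by 0.32. The ratio of Mcm2 to Mcm4, to Mcm5 and to Mcm7 was also higher in every H2afy_KO pool than in any H2afy_WT pool, so that 4 of 15 pairs did not overlap. All 4 hold Mcm2, so they are not independent of each other. The share of such ratios over pairs of other genes is not given here, so the count has no background. Each of these 4 pairs had a two-sided exact permutation p of 0.0286, the smallest that 70 assignments of 4 against 4 pools can give, and 0.107 after adjustment over the 15 pairs, so none passed. Pools that do not overlap fix this p at its smallest value. As the ratios were chosen with their values seen, it only restates that separation. Mcm2 to Mcm6 differed by -0.01 (exact permutation p = 0.943).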
